A study of Danio rerio with 32 samples.

Results

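Genes on the long arm of zebrafish chromosome 4 were examined in RNA sequencing libraries from zebrafish eyes and brains at 120 hours post fertilization (hpf). The members are the genes that start above 27 Mb on chromosome 4 and reach at least 1 FPKM (fragments per kilobase of transcript, scaled for library size) in at least 4 libraries of 1 tissue. They number 212 of the 1653 genes annotated there and of 32520 genes in the deposited table. The study dissected embryonic eyes and brains from wildtype zebrafish that had been exposed from 0.75 to 120 hpf. Exposure was to 12.5 µM PFNA, a perfluoroalkyl acid known as perfluorononanoic acid, or to 0 µM PFNA, both in 0.1% DMSO, so the animals called DMSO here received the solvent alone. Embryos were kept in 24 h of dark (DD) or in 14 h of light and 10 h of dark (LD). Tissue, photoperiod and treatment give 8 groups of 4 libraries. In the order used here they are eye LD PFNA, eye LD DMSO, eye DD PFNA, eye DD DMSO and the same 4 groups of brains. The compound follows the title and the labels of the samples; the design text of the series gives PFHxS instead.

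The long arm of zebrafish chromosome 4 is known as a late-replicating, heterochromatic and repeat-rich arm. It carries large tandem families of C2H2 zinc finger genes, which encode DNA-binding proteins, and of NLR genes, which encode NACHT-domain proteins related to innate immune sensors. It also holds arrays of small nuclear RNA and ribosomal RNA genes, and its end holds the sex-linked region of natural zebrafish strains. Family members of this kind are often near-identical in sequence, so a fragment can belong to several of them.

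Libraries held 8.83 to 16.13 M (mega) fragments assigned to genes, with a median of 11.59 M over the 31 libraries used. The library labelled brain DD PFNA replicate 3 had the rod opsin gene rho at 1283 FPKM. In eyes rho lay between 1161 and 3593 FPKM, and in the remaining brains between 0.126 and 7.74 FPKM. It was left out, so brain DD PFNA has 3 libraries. The summed level of 8 eye markers was 5457 to 9800 FPKM in eyes and 4.64 to 20.1 FPKM in the 15 brain libraries, and that of 8 brain markers was 127 to 173 FPKM in eyes and 241 to 347 FPKM in brains. Of the brain markers only mbpa, neurod6b and otpa did not overlap between the tissues. Most of the sum in eyes was gad1b, with 89.7 to 138 FPKM in eyes and 76.6 to 119 FPKM in brains. Eye DD PFNA replicate 4 also stood apart: it was the lowest of the 16 eye libraries for 37 of 187 members and the highest for 19, where each other eye library was lowest for 3 to 16 and highest for 3 to 16. Whether replicates were separate clutches is not given in the labels, so the p-values reflect the spread among these libraries. Dissected tissue is a mixture of cells, so fewer cells of a type and less RNA per cell cannot be told apart.

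Few of the annotated long-arm genes were expressed. The share was 12.8% (212 of 1653) on the long arm, against 67.1% (488 of 727) on the rest of chromosome 4 and 58.9% (19170 of 32520) over the table. No fragment at all was recorded for 503 long-arm genes in the 31 libraries, of which 393 were small RNA genes. Small RNA genes made up 494 of the 1653 annotated on the long arm and 45 of the 727 on the rest. The part of this mix of gene classes in the shares was not tested. Fragments assigned to any annotated long-arm gene made up 0.146% to 0.245% of a library, against 2.29% to 3.26% for the rest of chromosome 4.

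Expression was not spread evenly along the arm. Between 27 and 30 Mb 22 of 101 genes (21.8%) were expressed, between 30 and 70 Mb 69 of 1251 (5.52%), and beyond 70 Mb 121 of 301 (40.2%). The density of annotated genes was 25.7 to 34.7 per Mb along the long arm and 16.3 to 30.7 per Mb on the rest, so annotated genes were not sparser on the long arm as a whole. Of the FPKM summed over members, 79.3% came from the stretch beyond 70 Mb, 12.4% from 27 to 30 Mb and 8.29% from the 40 Mb in between. The 38 members with an assigned gene symbol outside the zinc finger and NLR families all lay in the outer stretches, 8 of them below 30 Mb and 30 beyond 70 Mb.

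**Figure D1:**
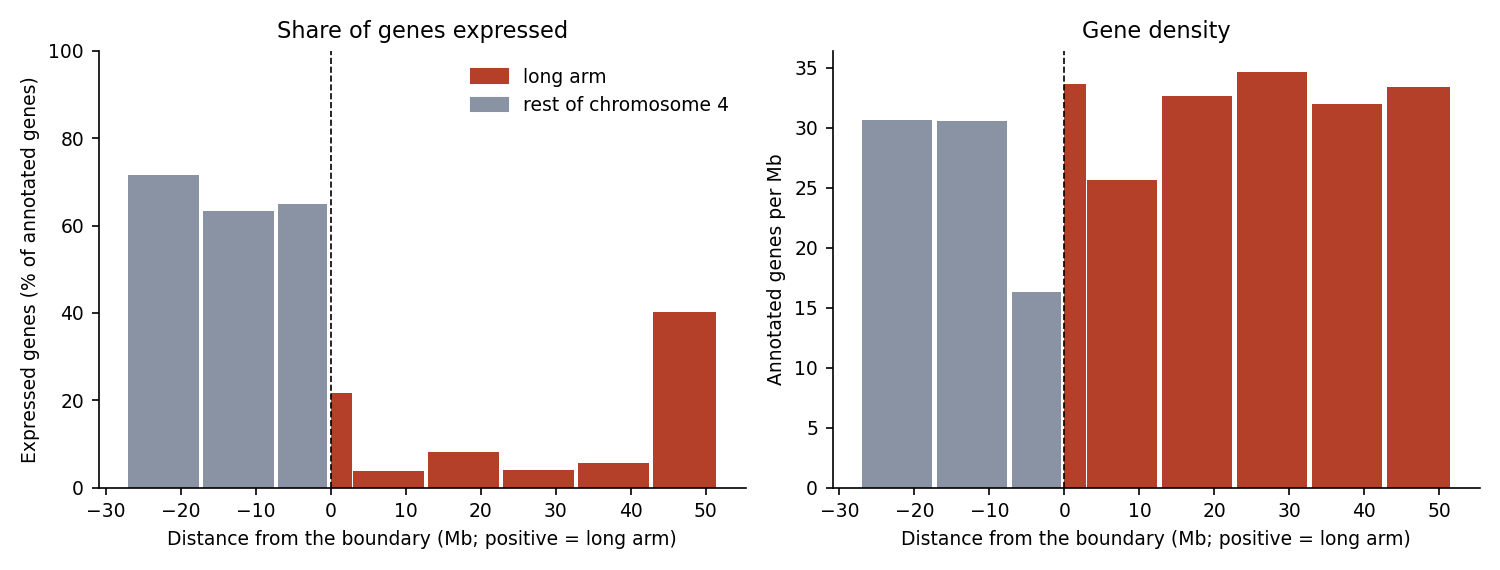
The left plot gives the share of annotated genes that were expressed (percent) and the right plot the number of annotated genes per Mb, both by distance in Mb from the start of the long arm, in bars for the long arm and for the rest of chromosome 4. The share is 3.89% to 8.26% in the middle of the long arm and 40.2% at its end, against 63.4% to 71.7% left of the boundary, while gene density is 25.7 to 34.7 per Mb along the long arm.

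At the boundary itself the rule divides a pair of neighbours. Just inside it lie CR749777.1, a model with no description, with 0.780 FPKM in eyes and 0.0707 FPKM in brains, and tafa5a, which encodes a secreted chemokine-like protein, with 1.93 FPKM in eyes and 8.42 FPKM in brains. Just outside lie iqsec3a, which encodes a guanine nucleotide exchange factor of Arf GTPases, with a mean of 6.18 FPKM in eyes and 10.5 FPKM in brains, and slc6a1l, which encodes a transporter of the GABA transporter family, with 6.71 FPKM in eyes and 0.00658 FPKM in brains. CR749777.1 (27018663 to 27022725) lies within the interval of slc6a1l (26972862 to 27079859) on the same strand, so their fragments are hard to separate.

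The gene families of the arm differed in how many of their genes were expressed. Of 64 protein-coding genes with a symbol 38 (59.4%) were expressed, with a median of 5.07 FPKM, against 76.9% and 7.72 FPKM over the table. Of 408 C2H2 zinc finger genes on the arm 72 (17.6%) were expressed, while 895 of the 1416 C2H2 zinc finger genes of the whole table (63.2%) were. Of 242 NLR genes on the arm 20 (8.26%) were expressed, against 53 of 385 (13.8%) in the table. For the remaining classes the numbers were 46 of 227 coding genes known by a clone name only (20.3%), 30 of 202 long non-coding genes (14.9%), 1 of 14 pseudogenes and 0 of 2 pim kinase related genes. Over the table the shares of these classes were 44.3%, 27.9%, 18.2% and 1.46%. The NLR and C2H2 classes were set by name or description before biotype, so they also hold pseudogenes and long non-coding genes. By biotype alone the arm has 35 unprocessed pseudogenes, of which 4 were members. Small RNA genes gave 5 members of 494 (1.01%), against 28.3% over the table. They were 3 of 392 small nuclear RNA genes, 2 of 42 ribosomal RNA genes and 0 of 59 microRNA genes. How well such short transcripts were captured is not given in the sources used here.

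Members were mostly low. Their median level was 1.48 FPKM, against 6.81 FPKM for expressed genes on the rest of chromosome 4 and 6.24 FPKM over the table, and 62.7% of members stayed below 2 FPKM, against 22.1% and 22.7%. A member had a median of 32.5 fragments per library, and 57 members had under 10, so a change in those would have to be large to be detectable at this depth. Only 16 members (7.55%) averaged 10 FPKM or more, against 40.0% and 37.7%.

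The highest members were AL935186.8 (mean 115 FPKM), a short coding model with no description, and cct2 (ENSDARG00000104674; 80.2 FPKM), which encodes a subunit of the chaperonin that folds actin and tubulin. Next came kcna1b (42.2 FPKM), a Shaker-type voltage-gated potassium channel, rab21 (35.6 FPKM), a small GTPase of endosomes, and zgc:172139 (30.2 FPKM), the homolog of the uncharacterized human gene KIAA0930. Among those that followed were cerk (27.6 FPKM), ceramide kinase, gramd4a (26 FPKM), a GRAM domain protein, the long non-coding CABZ01117780.1 (17.3 FPKM), trim24 (14.8 FPKM), a transcription cofactor, the inositol cotransporter gene SLC2A13 (1 of many) (14.4 FPKM) and PHF21B (14.4 FPKM), a PHD finger protein. The highest C2H2 zinc finger or NLR gene of the arm averaged 4.94 FPKM.

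PFNA against DMSO was tested with limma on log2(FPKM + 1), with p-values adjusted by the Benjamini-Hochberg method over all genes of the tissue and a gene called at an adjusted p under 0.05. The log2 changes below are on that scale, which understates the change of genes near or under 1 FPKM. In LD eyes 4 members rose and 3 fell of 187 tested (3.74%), where 10.7% of all genes (7.05% higher and 3.7% lower) and 12.1% of those on the rest of chromosome 4 were called. In DD eyes 2 rose and 4 fell (3.21%), where 10.9% of all genes (6.54% higher and 4.36% lower) and 13.1% of the rest of the chromosome were called. In LD brains 6 rose and 1 fell of 172 tested (4.07%), with 7.9% of all genes called (5.62% higher and 2.28% lower) and 8.74% of the rest. In DD brains 4 rose and 2 fell (3.49%), with 6.62% of all genes called (4.82% higher and 1.8% lower) and 7.59% of the rest. In LD brains median-ratio scaling gave 4 rises and 2 falls, as did voom on recovered fragments, and voom gave 7 rises and 2 falls in DD brains and 2 rises and 7 falls in DD eyes. The share of members called was under the background in all 4 comparisons. The count in LD eyes was 4 without eye LD DMSO replicate 2 or LD PFNA replicate 2 or 3 and 3 without LD PFNA replicate 4, and that in DD eyes was 3 without DD DMSO replicate 1 or 3. The count in LD brains was 4 without brain LD DMSO replicate 2 or LD PFNA replicate 4 and 3 without LD PFNA replicate 1 or 2, and that in DD brains was 10 without DD DMSO replicate 3.

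Low genes were called less often over the whole table, so shares were also set side by side below and above 2 FPKM. Levels were not matched within these ranges. Of all expressed genes 37.7% averaged 10 FPKM or more, against 7.55% of members. Among genes below 2 FPKM, PFNA in DD brains called 2.33% of members and 2.40% of all genes, and in LD eyes 1.71% of members and 4.13% of all genes. At 2 FPKM and above, 7.14% of members and 12.4% of all genes were called in LD eyes, and 4.65% and 7.70% in DD brains. PFNA in DD eyes called 3.42% of members and 4.58% of all genes below 2 FPKM, and 2.86% and 12.4% at 2 FPKM and above. For LD brains the shares were 1.16% and 2.20% below 2 FPKM, and 6.98% and 9.36% at 2 FPKM and above. These shares rest on few members, and the differences were not tested. Members also varied more, with a median residual SD of 0.34 in log2 units in eyes, against 0.27 over all genes.

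**Figure D2:**
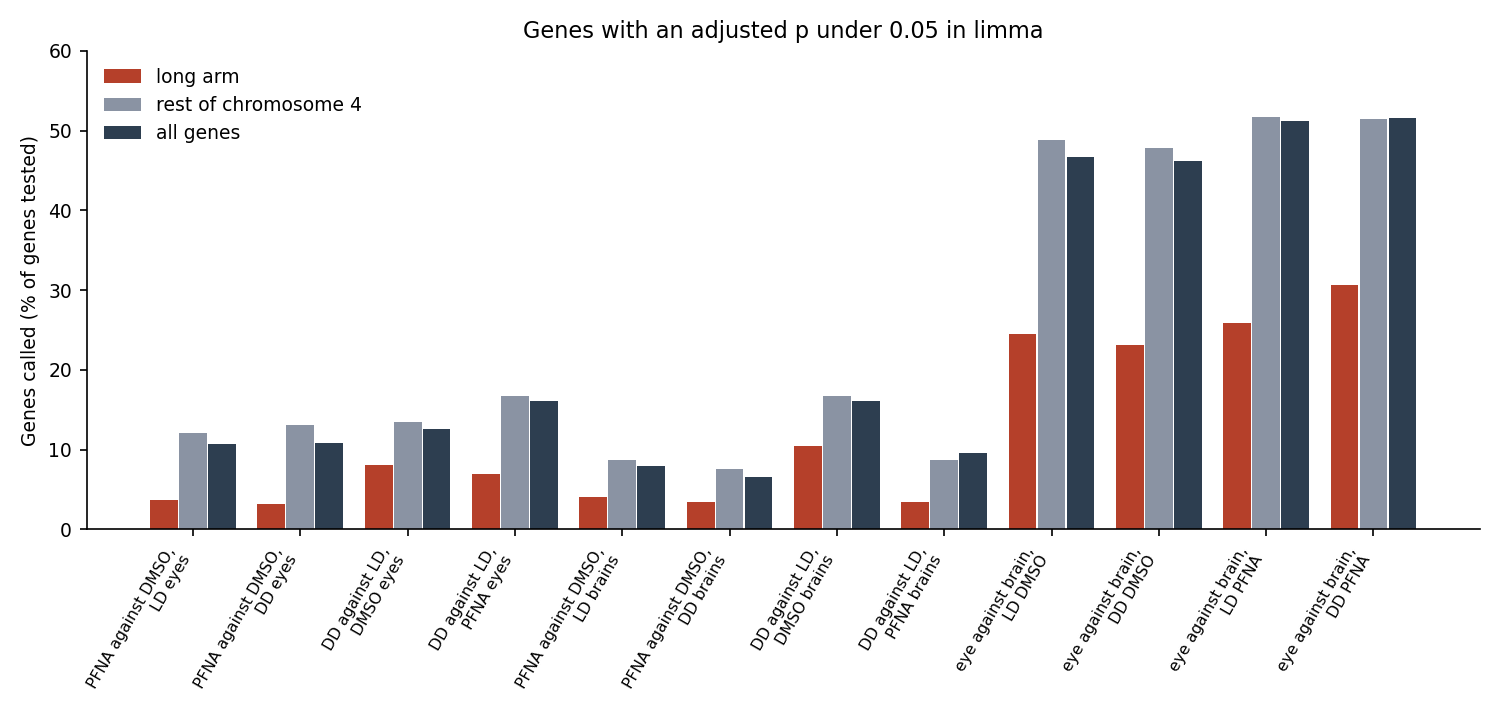
Bars give the percentage of tested genes with an adjusted p under 0.05 in limma, for genes on the long arm, on the rest of chromosome 4 and over the whole table, in 12 comparisons along the horizontal axis. The long-arm bar is the lowest of the 3 in each comparison, from 3.21% for PFNA in DD eyes to 30.6% for eye against brain in DD PFNA animals.

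Only zgc:172139 rose with PFNA in both tissues and both photoperiods, and only si:ch73-289h5.4 fell in all 4. The gene zgc:172139 (chromosome 4, 74970357 to 74998614, minus strand) had 35.4, 44.2, 40.9 and 42.4 FPKM in LD PFNA eyes, against 24.4, 17.7, 23.9 and 19.1 FPKM in LD DMSO eyes. In DD eyes it had 32.4, 43.6, 40.4 and 28.3 FPKM with PFNA and 21.2, 18.8, 19.4 and 18.2 FPKM with DMSO. Every PFNA eye library lay above every DMSO eye library of either photoperiod. In brains it had 38.2, 38.1, 39.9 and 36.2 FPKM in LD PFNA, against 28.2, 21.4, 28.5 and 25.1 FPKM in LD DMSO, and 39.5, 39.4 and 36.6 FPKM in DD PFNA, against 18, 22.2, 28.1 and 27.2 FPKM in DD DMSO. The groups did not overlap in any of the 4 comparisons. The log2 change was 0.91 ± 0.14 (SE) in LD eyes and 0.85 ± 0.14 in DD eyes (limma, adjusted p = 0.00052 and 0.00082). It was 0.55 ± 0.12 in LD brains and 0.69 ± 0.13 in DD brains (limma, adjusted p = 0.014 and 0.0066), and all 4 calls held without any single library of their groups.

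The NLR gene si:ch73-289h5.4 (chromosome 4, 28473223 to 28504516, plus strand) encodes a protein with NACHT and pyrin domains. It had 0.721, 0.455, 0.178 and 0.0970 FPKM in LD PFNA eyes, against 0.912, 1.51, 1.36 and 1.63 FPKM in LD DMSO eyes, and 0.957, 0.392, 1.09 and 0.431 FPKM in DD PFNA eyes, against 2.60, 2.61, 2.75 and 3.55 FPKM in DD DMSO eyes. Brains had 0.267, 0.523, 0.760 and 0.339 FPKM in LD PFNA, against 1.22, 1.59, 2.17 and 0.929 FPKM in LD DMSO, and 0.349, 0.605 and 0.414 FPKM in DD PFNA, against 1.17, 2.51, 1.43 and 1.61 FPKM in DD DMSO. The PFNA libraries were the low ones in each comparison, without overlap. The gene passed the filter on low values through DMSO libraries, which were 7 of 7 libraries at 1 FPKM or more in brains and 7 of 8 in eyes, so a member of this kind had to differ and its tests are no separate support. On the log2 scale it fell by 0.80 ± 0.19 in LD eyes, 1.19 ± 0.19 in DD eyes, 0.74 ± 0.20 in LD brains and 0.86 ± 0.21 in DD brains (SE; limma, adjusted p = 0.014, 0.0009, 0.033 and 0.025). The call in DD eyes held without any single library. That in LD eyes was lost without eye LD PFNA replicate 4 (adjusted p = 0.050), that in LD brains without brain LD DMSO replicates 1, 2 or 3 or LD PFNA replicates 1, 2 or 4 (up to 0.094), and that in DD brains without brain DD DMSO replicate 2 or any DD PFNA library (up to 0.093).

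**Figure D3:**
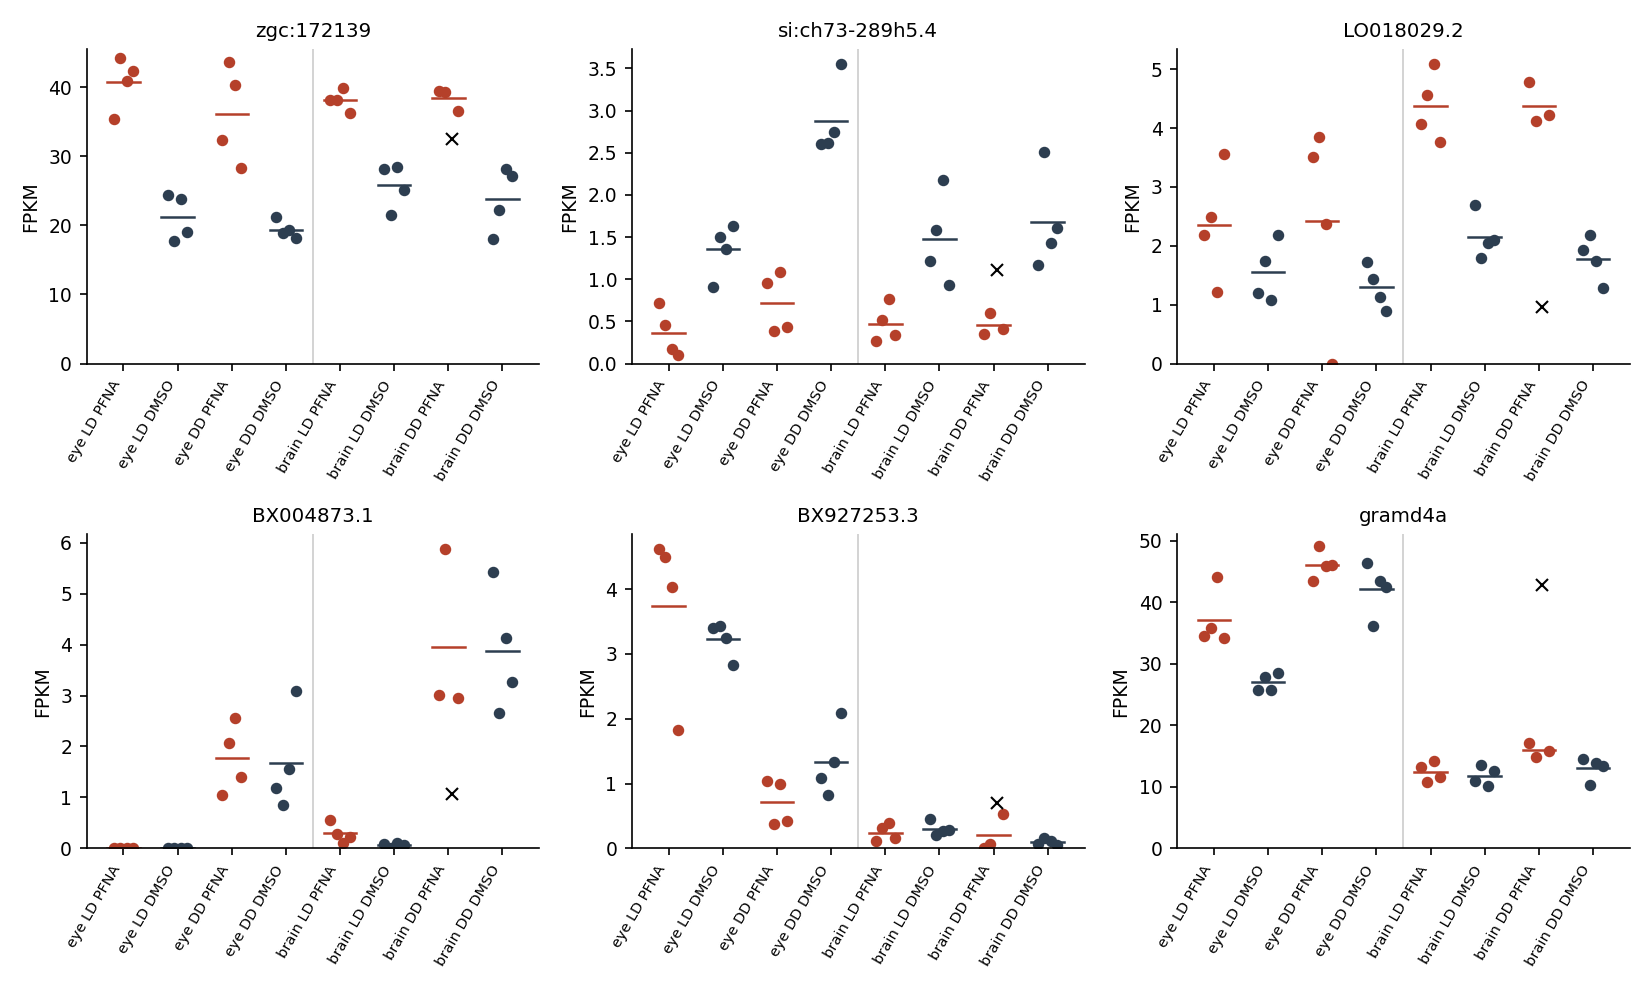
Each plot gives the FPKM of 1 gene in every library, with PFNA libraries in red left of the DMSO libraries in dark blue, the group mean as a line and the left-out library as a cross. PFNA libraries lie above DMSO libraries for zgc:172139 and below them for si:ch73-289h5.4 in all 4 pairs, BX004873.1 is at 0 in all 8 LD eye libraries, and gramd4a is higher in every eye library than in any brain library used.

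A zinc finger gene rose with PFNA in brains of both photoperiods. LO018029.2 (77262694 to 77263602, minus strand) encodes a C2H2 protein and had 4.06, 4.57, 5.09 and 3.77 FPKM in LD PFNA brains, against 2.69, 1.80, 2.04 and 2.10 FPKM in LD DMSO brains. In DD brains it had 4.78, 4.12 and 4.22 FPKM with PFNA and 1.93, 2.18, 1.75 and 1.28 FPKM with DMSO. The groups were separate, and the log2 change was 0.77 ± 0.14 in LD and 0.96 ± 0.15 in DD (SE; limma, adjusted p = 0.0031 and 0.0015), held without any single library. In eyes it was not called, and its DD PFNA eye libraries ran from 0 FPKM in replicate 4 to 3.85 FPKM in replicate 2.

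Among the other coding members, kcna1b rose in LD brains, where it had 63.9, 57.3, 70.01 and 64.8 FPKM with PFNA and 40.6, 53.8, 41.1 and 48.1 FPKM with DMSO. The log2 change of 0.48 ± 0.11 (SE; limma, adjusted p = 0.014) held without any single library. The gene abcd2, which encodes a peroxisomal transporter of very long-chain fatty acids, rose in DD brains with 9.12, 9.78 and 9.21 FPKM in PFNA, against 5.73, 4.87, 7.5 and 5.60 FPKM in DMSO (log2 change 0.60 ± 0.11, SE; limma, adjusted p = 0.0061, held without any single library). In LD brains abcd2 had 11.7 to 13.7 FPKM with PFNA and 9.44 to 10.9 FPKM with DMSO, a difference that was not called. Nor was kcna1b called in DD brains, where the direction was the same. Its fragments there, not scaled for library size, were 1769, 1308 and 1778 with PFNA and 1166, 1215, 1218 and 978 with DMSO. The gene gramd4a rose in LD eyes, with 34.5, 35.9, 44.2 and 34.2 FPKM with PFNA, against 25.8, 27.9, 25.8 and 28.6 FPKM with DMSO (log2 change 0.44 ± 0.10, SE; limma, adjusted p = 0.0085, held without any single library).

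The remaining calls for PFNA were less stable. In LD eyes CABZ01043953.1, a gene similar to mammalian LIMD1, had 16.2 to 20.6 FPKM with PFNA and 11.9 to 13.3 FPKM with DMSO (log2 change 0.51 ± 0.13), and the C-type lectin domain gene LO018124.1 had 3.51 to 9.27 FPKM with PFNA and 0.94 to 3.49 FPKM with DMSO (1.02 ± 0.29). The first lost its call without eye LD DMSO replicate 2 or LD PFNA replicates 1 or 4 (limma, adjusted p up to 0.062), and the second without LD DMSO replicates 1 or 2 or LD PFNA replicates 2, 3 or 4 (up to 0.11). The long non-coding BX950220.2 and the NLR gene si:ch211-76m11.3 fell by 1.18 ± 0.33 and 0.65 ± 0.20 in log2 units in LD eyes (limma, adjusted p = 0.0322 and 0.0445). Both calls were lost without any 1 of eye LD DMSO replicates 2 and 3 and LD PFNA replicates 2, 3 and 4, and that of si:ch211-76m11.3 also without LD DMSO replicate 1 (adjusted p up to 0.107 and 0.127). In DD eyes ms4a17a.7, of the CD20-like MS4A family of membrane proteins, rose, with 2.71, 2.79, 2.02 and 2.63 FPKM with PFNA and 0, 0.411, 0.249 and 1.86 FPKM with DMSO (log2 change 1.23 ± 0.29, SE; limma, adjusted p = 0.013, held without any single library). It had a median of only 8 fragments per library. It passed the filter through the 4 DD PFNA eye libraries and 1 DD DMSO eye library, so its call is no separate support.

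In LD brains arfgap3, an Arf GTPase-activating protein, and the zinc finger gene znf1015 (ENSDARG00000054957, named after its values were seen) rose by 0.66 ± 0.17 and 0.77 ± 0.22 in log2 units (limma, adjusted p = 0.0321 and 0.0469). Both calls were lost without brain LD PFNA replicate 1 or 2, that of arfgap3 also without LD PFNA replicate 4 or LD DMSO replicate 1 or 3, and that of znf1015 without LD PFNA replicate 3 or LD DMSO replicate 2 or 4 (adjusted p up to 0.0959 and 0.135). The summed level of 5 muscle markers was 17.1 to 65.4 FPKM in LD PFNA brains and 41.2 to 237 FPKM in LD DMSO brains, and that of 9 exocrine pancreas markers was 10.6 to 24.2 FPKM in DD PFNA brains and 51.5 to 357 FPKM in DD DMSO brains; their part in the results on members was not tested. SLC2A13 had 33.6, 31 and 30.8 FPKM in DD PFNA brains, against 17.1, 13.6, 23.0 and 23.4 FPKM in DD DMSO brains, and rose by 0.73 ± 0.17 in log2 units (limma, adjusted p = 0.021; up to 0.084 without brain DD DMSO replicate 1 or any DD PFNA library). The coding model si:dkeyp-44b5.4, which has no description, had 0, 0 and 0.110 FPKM in DD PFNA brains, against 6.99, 1.5, 4.34 and 4.24 FPKM in DD DMSO brains. It fell by 2.23 ± 0.39 in log2 units (limma, adjusted p = 0.00355, held without any single library), and the left-out library had 4.30 FPKM. It entered the brain tests only through DMSO libraries, since all 7 PFNA brains used were under 1 FPKM, so those tests are no separate support. In LD brains the 4 PFNA libraries had 0, 0.195, 0.926 and 0.658 FPKM and the DMSO libraries 1.98, 2.21, 0.616 and 4.10 FPKM, which overlapped and was not called.

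By family, 0 of 60 tested long-arm C2H2 genes were called for PFNA in LD eyes and 0 in DD eyes, against 80 and 90 of 778 C2H2 genes elsewhere. At an unadjusted p under 0.05 limma had 2 and 6 of the 60 long-arm genes. Expressed C2H2 genes had a median of 1.46 FPKM on the arm and 4.64 FPKM over the table, and these counts were not matched for level. In brains 2 of 68 rose in LD, against 46 rises and 23 falls of 790 elsewhere, and 1 of 68 rose in DD, against 24 rises and 14 falls. Of 16 NLR members tested in eyes, 2 fell with PFNA in LD and 3 in DD, and 0 rose. NLR genes elsewhere had 3 rises and 0 falls of 32 in LD eyes and 3 rises and 1 fall in DD eyes. Between 30 and 70 Mb PFNA calls numbered 0 of 55 members in LD eyes, 0 of 55 in DD eyes, 0 of 45 in LD brains and 1 of 45 in DD brains. Beyond 70 Mb they numbered 5 of 115 in each eye comparison, 6 of 107 in LD brains and 4 of 107 in DD brains. Between 27 and 30 Mb they numbered 2 of 17 in LD eyes (11.8%), 1 of 17 in DD eyes and 1 of 20 in each brain comparison. Over all genes PFNA called 10.7% in LD eyes, 10.9% in DD eyes, 7.9% in LD brains and 6.62% in DD brains. Darkness gave 6 calls of 55 in DMSO eyes and 5 of 45 in DMSO brains between 30 and 70 Mb, and 6 of 115 and 13 of 107 beyond it. With PFNA it gave 4 of 55 in eyes and 3 of 45 in brains there, and 8 of 115 and 3 of 107 beyond. Between 27 and 30 Mb it gave 3 of 17 in DMSO eyes (17.6%), 1 of 17 in PFNA eyes and 0 of 20 in each brain comparison. Over all genes darkness called 12.6% in DMSO eyes, 16.1% in PFNA eyes, 16.1% in DMSO brains and 9.63% in PFNA brains. No difference between these classes or stretches was tested.

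Constant darkness was then set against the light-dark cycle within each treatment. In DMSO eyes 9 members rose and 6 fell under DD (8.02%), where 12.6% of all genes (6.22% higher and 6.34% lower) and 13.5% of the rest of chromosome 4 were called. In PFNA eyes 4 rose and 9 fell (6.95%), with 16.1% of all genes (7.04% higher and 9.05% lower) and 16.7% of the rest called. In DMSO brains 11 rose and 7 fell (10.5%), with 16.1% of all genes (6.39% higher and 9.68% lower) and 16.8% of the rest called, and in PFNA brains 6 rose and 0 fell (3.49%), with 9.63% of all genes (3.66% higher and 5.97% lower) and 8.74% of the rest called. In PFNA brains median-ratio scaling gave 6 rises and 1 fall, and voom 7 rises and 4 falls. Below 2 FPKM darkness called 7.69% of members and 6.44% of all genes in DMSO eyes, and 4.27% and 6.80% in PFNA eyes. These shares were 6.98% and 7.28% in DMSO brains, and 3.49% and 3.40% in PFNA brains. At 2 FPKM and above the share of members was the lower one in each of these comparisons, but levels were not matched within that range. The DMSO and PFNA comparisons use separate libraries, but each DMSO group also serves as a control for PFNA above. The count in DMSO eyes was 25 without eye DD PFNA replicate 4, which enters that comparison only through the shared spread, 9 without DD DMSO replicate 3 or LD DMSO replicate 2 or 4, and 7 without LD DMSO replicate 3. The count in PFNA eyes was 21 without DD PFNA replicate 2, 6 without DD PFNA replicate 4 or LD PFNA replicate 1, 4 without LD PFNA replicate 2 and 8 without LD PFNA replicate 4. The count in DMSO brains was 11 without brain LD DMSO replicate 1 and 10 without LD DMSO replicate 4. The summed level of 9 exocrine pancreas markers was 58.7 to 280 FPKM in DD DMSO eyes against 17.5 to 90.4 FPKM in LD DMSO eyes, and 51.5 to 357 FPKM in DD DMSO brains against 10.4 to 28.0 FPKM in LD DMSO brains. With PFNA it was 39.0 to 195 FPKM in DD eyes against 23.5 to 52.5 FPKM in LD eyes, and 10.6 to 24.2 FPKM in DD brains against 8.28 to 28.9 FPKM in LD brains, which overlap. Its part in the results on members was not tested.

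Only BX004873.1 was called for darkness in all 4 comparisons. It is a processed transcript without description (chromosome 4, 66618956 to 66621983, minus strand). It had 1.05, 2.08, 2.55 and 1.4 FPKM in DD PFNA eyes and 1.19, 0.856, 1.56 and 3.08 FPKM in DD DMSO eyes, against 0 FPKM in all 8 LD eye libraries, so that it passed the filter on low values through its DD libraries, as it did in brains. The DD PFNA eyes held 95 fragments in sum against 0 in LD PFNA eyes, at least 37.2-fold more relative to library size when 3 fragments are put over the LD group, and the DD DMSO eyes held 106 against 0 in LD DMSO eyes, at least 38.9-fold more. In brains it had 3.01, 5.87 and 2.95 FPKM in DD PFNA, against 0.566, 0.287, 0.111 and 0.221 FPKM in LD PFNA, and 5.42, 2.65, 4.13 and 3.27 FPKM in DD DMSO, against 0.0832, 0, 0.104 and 0.0615 FPKM in LD DMSO. No DD library overlapped the LD libraries of its tissue and treatment. A member that passed the filter in this way had to differ, so its tests are no separate support. The log2 change was 1.35 ± 0.23 in DMSO eyes, 1.44 ± 0.23 in PFNA eyes, 2.17 ± 0.21 in DMSO brains and 1.89 ± 0.23 in PFNA brains (SE; limma, adjusted p = 0.00195, 0.00187, 4.9e-05 and 0.00068), and every call held without any single library.

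A neighbouring pair of genes fell in DD eyes. BX927253.3 (43367796 to 43374443, minus strand) encodes PIF1 helicase and Helitron-like domains, which are known from transposable elements, and had 1.04, 0.374, 0.997 and 0.425 FPKM in DD PFNA eyes, against 4.62, 4.49, 4.04 and 1.82 FPKM in LD PFNA eyes. In DMSO eyes it had 1.08, 0.827, 1.33 and 2.09 FPKM under DD and 3.39, 3.42, 3.24 and 2.83 FPKM under LD. The groups did not overlap, and it fell by 1.45 ± 0.23 in PFNA eyes and 0.88 ± 0.23 in DMSO eyes on the log2 scale (SE; limma, adjusted p = 0.0019 and 0.022). The call in DMSO eyes was lost without DD DMSO replicates 1 or 2 or LD DMSO replicates 2 or 3 (adjusted p up to 0.062). BX927253.2, a sense-intronic transcript 2.54 kb away on the same strand, fell by 1.19 ± 0.32 and 1.07 ± 0.32 in PFNA and DMSO eyes (limma, adjusted p = 0.023 and 0.038; up to 0.064 and 0.11 without 1 library, namely eye LD PFNA replicates 1, 2 or 3 in the PFNA comparison and any DMSO eye library but DD replicate 4 and LD replicate 2 in the DMSO comparison). Fragments of the pair may not be fully separated. In brains BX927253.3 had 0.0107 to 0.539 FPKM and BX927253.2 0.217 to 1.42 FPKM.

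Of 16 NLR members tested under DD in DMSO eyes 4 rose and 0 fell, the same share as among NLR genes elsewhere in the genome, of which 8 of 32 rose and 0 fell. Over all genes 6.22% were called higher and 6.34% lower in that comparison. The gene si:dkey-27n6.4 (71578099 to 71610565) had 5.4, 2.63, 3.43 and 1.70 FPKM in DD DMSO eyes, against 0.381, 0.811, 1.15 and 0.672 FPKM in LD DMSO eyes, without overlap (log2 change 1.24 ± 0.25, SE; limma, adjusted p = 0.0063). BX927130.3, an NLR sequence annotated as an unprocessed pseudogene 31.2 kb away on the same strand, had 2.91, 0.823, 2.28 and 1.03 FPKM under DD and 0, 0.165, 0.140 and 0.0893 FPKM under LD (1.26 ± 0.26; adjusted p = 0.0066 in limma), having passed the filter through DD libraries. Both calls held without any single library. The other 2 called were ENSDARG00000095200 at 49765093 to 49808690 (1.02 ± 0.26; limma, adjusted p = 0.021) and si:ch73-289h5.4 (0.72 ± 0.19; limma, adjusted p = 0.025). Both calls were lost without eye DD DMSO replicate 3, the first also without LD DMSO replicate 2 or 4 and the second without DD DMSO replicate 4 or LD DMSO replicate 1 or 3 (adjusted p up to 0.068 and 0.071). Among the eye libraries ENSDARG00000095200 reached 1 FPKM only under DD, in 4 with DMSO and 1 with PFNA, and so passed the filter in eyes through them. The rises of ENSDARG00000095200 and BX927130.3 are therefore no separate support.

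Of these 4 genes 3 fell with PFNA in DD eyes, among them si:ch73-289h5.4 as given above. The 4 were picked as high in DD DMSO eyes, the reference group here, so this count is no separate support. In DD PFNA eyes si:dkey-27n6.4 had 1.2, 1.63, 0.640 and 1.31 FPKM, and it fell by 0.92 ± 0.25 in log2 units against DD DMSO eyes (limma, adjusted p = 0.030). BX927130.3 had 1.22, 0.225, 0.306 and 0.0653 FPKM and fell by 0.91 ± 0.26 (limma, adjusted p = 0.034). In eyes it reached 1 FPKM only in DD DMSO replicates 1, 3 and 4 and DD PFNA replicate 1, so it passed the filter mostly through the high group. Both comparisons use the DD DMSO eyes as the group that was high above, and both calls were lost without eye DD DMSO replicate 1 or 3, or without some DD PFNA libraries (replicates 1 and 3 for si:dkey-27n6.4 and 2, 3 and 4 for BX927130.3; adjusted p up to 0.0996 and 0.114). In PFNA eyes 0 of 16 NLR members were called for darkness in limma, with 2 at an unadjusted p under 0.05. The summed level of 9 leukocyte markers was 9.67 to 11.9 FPKM in LD PFNA eyes and 6.22 to 9.72 FPKM in LD DMSO eyes, which barely overlap, and 6.03 to 12.2 FPKM in DD PFNA eyes and 7.07 to 11.4 FPKM in DD DMSO eyes. Of these markers csf1ra had 2.60 to 6.51 FPKM over the eye libraries, lcp1 0.207 to 3.56 FPKM and mpx 0.240 to 2.92 FPKM. The markers ptprc, coro1a, mpeg1.1 and cd74a stayed under 1 FPKM in eyes, so the sum rests on few of the listed genes. The part of this sum in the NLR calls was not tested.

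C2H2 members that were called for darkness mostly rose. In DMSO eyes 3 of 60 rose and 0 fell (si:dkey-16p19.5, zgc:175107 and znf1117, named after their values were seen), against 31 rises and 55 falls of 778 elsewhere. In DMSO brains 5 of 68 rose and 0 fell, against 46 rises and 73 falls of 790 elsewhere, and in PFNA brains 3 rose and 0 fell, against 23 rises and 57 falls. In PFNA eyes 0 rose and 1 fell (zgc:171673, named after its values were seen), against 24 rises and 104 falls. Over all genes 6.22% rose and 6.34% fell in DMSO eyes, and 6.39% and 9.68% in DMSO brains. These shares were 3.66% and 5.97% in PFNA brains, and 7.04% and 9.05% in PFNA eyes. Outside PFNA eyes the shares of C2H2 members that rose were near those over all genes. In DMSO eyes si:dkey-16p19.5 had 18, 6, 21 and 12 fragments under DD, against 5, 2, 0 and 4 under LD. For znf1117 they were 7, 25, 18 and 15, against 7, 3, 0 and 0. The third, zgc:175107, was less low, with 106, 75, 90 and 65 fragments, against 50, 94, 43 and 37. A low member that passes the filter through DD libraries can hardly be called as a fall. The direction of such calls is therefore no separate support, and the counts were not matched for level. CU138542.2 (60358706 to 60377137), annotated as a long intergenic non-coding RNA with a C2H2 domain match, rose in both brain comparisons. It had 1.68, 1.17 and 1.07 FPKM in DD PFNA brains, against 0.143 to 0.396 FPKM in LD PFNA brains, and 1.24, 0.579, 1.06 and 1.05 FPKM in DD DMSO brains, against 0 to 0.161 FPKM in LD DMSO brains. The log2 change was 0.89 ± 0.18 with PFNA and 0.86 ± 0.16 with DMSO (SE; limma, adjusted p = 0.0072 and 0.0032). Both calls held without any single library, but the gene passed the filter through DD libraries only, so its tests are no separate support.

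Several coding members with known roles moved with darkness in 1 tissue. In DMSO eyes gramd4a rose with 46.4, 36.2, 43.4 and 42.5 FPKM under DD, against 25.8, 27.9, 25.8 and 28.6 FPKM under LD (log2 change 0.62 ± 0.10, SE; limma, adjusted p = 0.0014). In the same eyes trim24 fell to 11, 10.4, 11.29 and 8.10 FPKM under DD, against 15.1, 15.4, 14.8 and 14.1 FPKM under LD, a log2 change of -0.51 ± 0.12 (limma, adjusted p = 0.013), and in PFNA eyes the change was -0.44 ± 0.12 (adjusted p = 0.023 in limma; up to 0.069 without eye LD PFNA replicate 1 or 2). In DMSO brains abcd2 fell, with 5.73, 4.87, 7.5 and 5.60 FPKM under DD, against 9.80, 9.44, 9.87 and 10.9 FPKM under LD (log2 change -0.68 ± 0.11, SE; limma, adjusted p = 0.00092). The shorter cct2 model (ENSDARG00000087206, 78008298 to 78009682, plus strand) fell in DMSO brains, with 6.89, 4.31, 7.41 and 6.20 FPKM under DD, against 14.3, 22.4, 11.1 and 16.6 FPKM under LD (log2 change -1.23 ± 0.22, SE; limma, adjusted p = 0.0022). The other cct2 model, 12.9 kb away on the opposite strand, had 67.5 to 84.1 FPKM in DD DMSO brains and 64.4 to 82.0 FPKM in LD DMSO brains and was not called, and the sources do not say whether the counting used strand. Apart from trim24 in PFNA eyes, these calls held without any single library of their groups. CR376730.2, a processed transcript, also rose in DMSO brains (1.12 ± 0.28; limma, adjusted p = 0.014, held without any single library), at a median of 2 fragments per library. It had 9, 14, 3 and 10 fragments in DD DMSO brains and 1, 1, 2 and 2 in LD DMSO brains. In brains it passed the filter mostly through DD libraries, so its call is no separate support. CR749777.1 fell in DMSO eyes by 0.80 ± 0.25 (limma, adjusted p = 0.044), a call that was lost when any library of the comparison but DD DMSO replicate 4 was left out (adjusted p up to 0.13).

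The effect of PFNA was not shown to depend on photoperiod for any member. For the interaction limma called 0 of 187 members in eyes, where 0.137% of all genes were called, and 0 of 172 in brains, where 0.00581% were. At an unadjusted p under 0.05 limma had 15 members in eyes and 10 in brains, and voom on recovered fragments also called 0 and 0. The interaction was -0.07 ± 0.19 in eyes and 0.13 ± 0.18 in brains for zgc:172139, and 1.27 ± 0.42 in eyes for ms4a17a.7 (SE, log2 units; limma, adjusted p = 0.925, 0.962 and 0.258).

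AL935186.8, the member with the highest mean, varied widely within groups. It is a coding model of 291 bases (chromosome 4, 77562651 to 77563411, minus strand). In LD eyes it had 0.521, 2.38, 239 and 0 FPKM with PFNA and 257, 0.657, 277 and 0.948 FPKM with DMSO, and in DD eyes 60.2, 119, 108 and 126 FPKM with PFNA and 39.6, 81.2, 73.8 and 242 FPKM with DMSO. In brains it had 0, 2.23, 0.274 and 7.64 FPKM in LD PFNA and 0.206, 59.4, 0 and 1.22 FPKM in LD DMSO, and 554, 280 and 639 FPKM in DD PFNA and 3.35, 2.45, 258 and 130 FPKM in DD DMSO. Within LD eyes some libraries of a group were near 0 and others at 239 FPKM or more, and most LD brains were near 0. The DD PFNA brains lay above every LD PFNA brain, with a log2 change of 7.57 ± 1.58 (SE; limma, adjusted p = 0.0094, held without any single library), and the left-out library of that group had 499 FPKM.

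AL935186.9, 0.971 kb away on the same strand, followed a like pattern over the libraries. It had 15.9, 12.8 and 16.4 FPKM in DD PFNA brains, against 0.419, 0.273, 0 and 0.552 FPKM in LD PFNA brains (log2 change 3.63 ± 0.63, SE; limma, adjusted p = 0.00365, held without any single library). It passed the filter in brains only through 5 DD libraries, since all 8 LD brains were under 1 FPKM, so its brain tests are no separate support. It had 0.376, 0.749, 13.5 and 8.53 FPKM in DD DMSO brains, against 0.554, 0.238, 0 and 0 FPKM in LD DMSO brains, a call (1.86 ± 0.58; limma, adjusted p = 0.042) that was lost without brain DD DMSO replicate 3 or 4 or without any LD DMSO library (up to 0.12). AL935186.6, 10.8 kb away on the same strand and also 291 bases long, reached 108 FPKM; it is named after its values were seen. Fragments may be split among these 3 models.

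**Figure D4:**
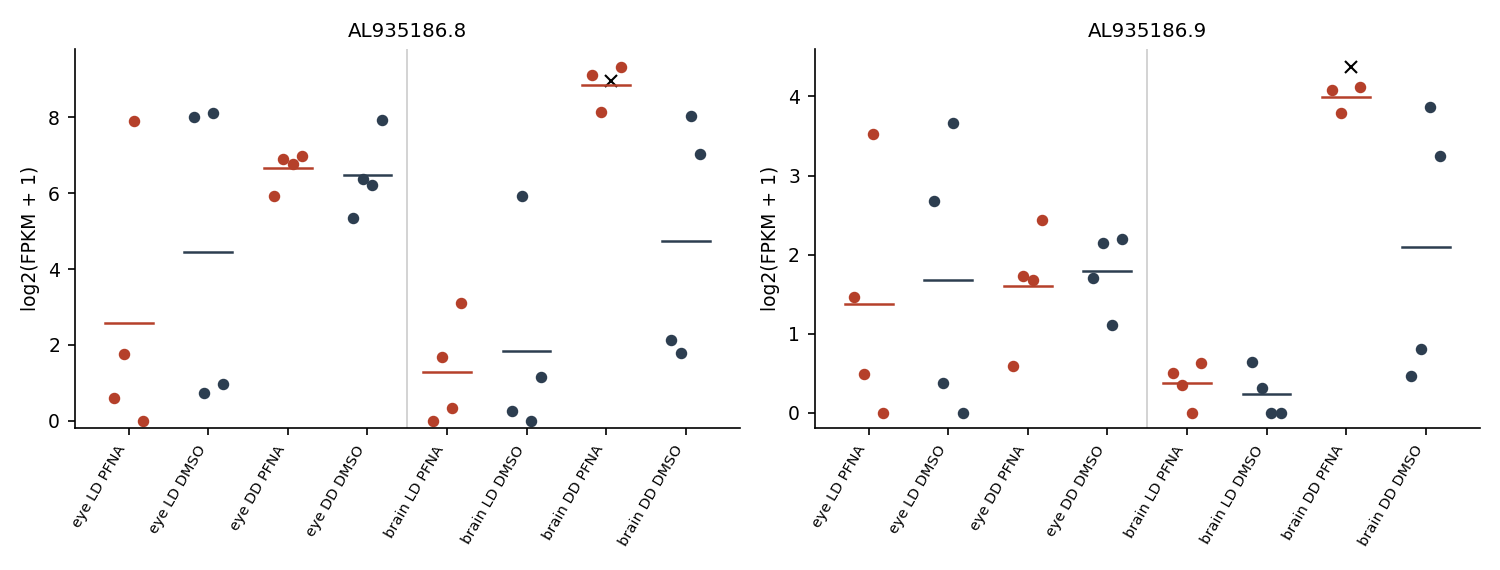
Points give log2(FPKM + 1) of AL935186.8 and AL935186.9 in each library, PFNA in red left of DMSO in dark blue, with the group mean as a line and the left-out library as a cross. Libraries of 1 group lie at both ends of the range in LD eyes and in DD DMSO brains, while DD PFNA brains are all high.

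Eye against brain was the comparison with the most calls. In LD DMSO animals 8 of 147 members tested in both tissues were higher in eyes and 28 lower (24.5%), where 46.7% of all genes (22.2% higher and 24.5% lower) and 48.8% of the rest of chromosome 4 were called. In DD DMSO animals 7 were higher and 27 lower (23.1%, with 46.2% of all genes called, 21.9% higher and 24.3% lower), in LD PFNA animals 11 higher and 27 lower (25.9%, with 51.2% of all genes called, 24.3% higher and 26.8% lower), and in DD PFNA animals 7 higher and 38 lower (30.6%, with 51.5% of all genes called, 24.7% higher and 26.8% lower). The median member differed by -0.15, -0.19, -0.17 and -0.28 in log2 units in these 4 comparisons, against -0.01, -0.01, -0.03 and -0.02 over all genes. Members tested in both tissues exclude 40 that passed the filter in eyes only and 25 in brains only. Below 2 FPKM, 17.1% of members and 16.8% of all genes were called in LD DMSO animals, and at 2 FPKM and above 31.2% of members and 51.3% of all genes. Levels were not matched within these ranges.

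By class, of 35 members with a symbol 18 were called in LD DMSO animals (51.4%), 5 higher and 13 lower in eyes, against 49.97% of such genes elsewhere. Of 56 C2H2 members 0 were higher and 7 lower in eyes in LD DMSO animals, 0 and 8 in DD DMSO, 0 and 8 in LD PFNA and 0 and 13 in DD PFNA. Of 745 C2H2 genes elsewhere 102 were higher and 191 lower in eyes in LD DMSO animals. Of 6 NLR members 0 were higher and 2 lower, si:ch211-76m11.3 and BX088538.1, the second named after its values were seen. The counts were also 0 and 2 in LD PFNA and DD PFNA, and in DD DMSO 1 was higher, si:ch73-289h5.4, and 2 lower. Over all genes 21.9% to 24.7% were called higher in eyes and 24.3% to 26.8% lower in these 4 groups. No difference between these classes and all genes was tested.

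**Figure D5:**
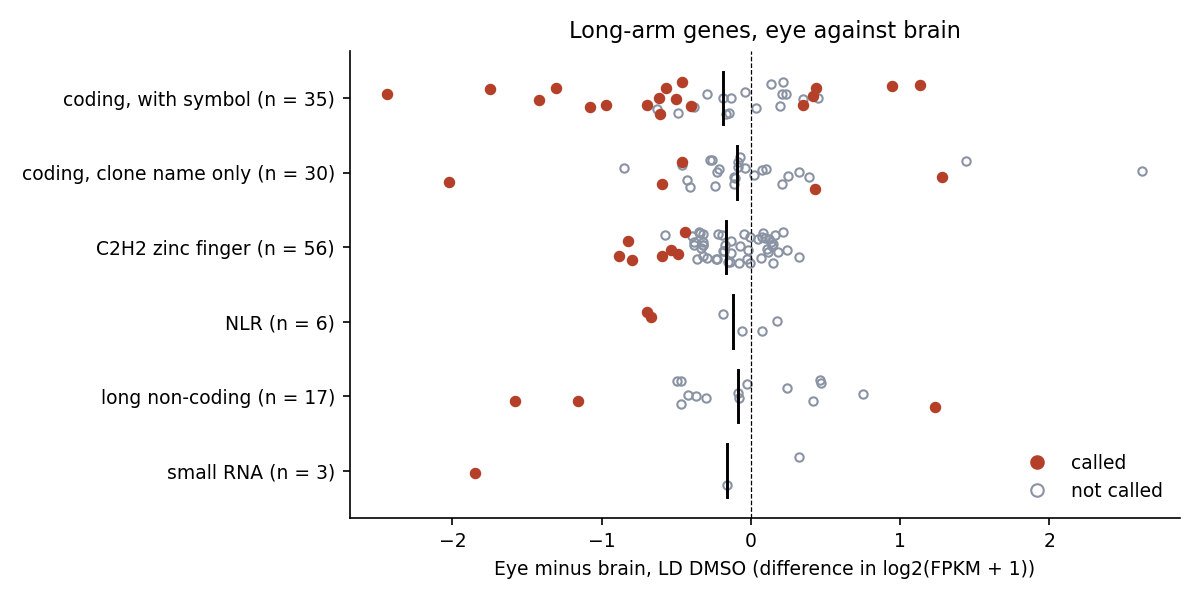
Each point is 1 long-arm gene placed by its difference between eye and brain in LD DMSO animals, in log2(FPKM + 1), in rows by class, filled where limma called it and with a black bar at the class median. Called C2H2 and NLR genes all lie left of 0, that is lower in eyes, and the widest called differences belong to coding genes, from -2.44 to 1.28.

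In all 4 groups 14 of 147 members were called lower in eyes (9.52%, against 17.3% of all genes and 18.1% of the rest of chromosome 4) and 4 were called higher (2.72%, against 14.2% and 14.0%). Those higher were gramd4a, cerk, alg10, which encodes a glucosyltransferase of N-glycan synthesis, and CABZ01043953.1. In LD DMSO animals gramd4a had 25.8, 27.9, 25.8 and 28.6 FPKM in eyes, against 10.9, 13.6, 10.1 and 12.6 FPKM in brains. Its log2 difference was 1.14 ± 0.11 there, 1.62 ± 0.11 in DD DMSO, 1.5 ± 0.11 in LD PFNA and 1.47 ± 0.12 in DD PFNA animals (SE; limma, adjusted p = 6.7e-10, 5.4e-13, 2.2e-12 and 2e-11). CABZ01043953.1 had 13.0, 11.9, 12.7 and 13.3 FPKM in LD DMSO eyes, against 3.88, 4.35, 6.36 and 4.32 FPKM in LD DMSO brains (1.28 ± 0.17, SE; limma, adjusted p = 2.25e-07).

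Among the members lower in eyes, SLC2A13 had 2.72, 1.89, 3.49 and 5.33 FPKM in LD DMSO eyes, against 18.1, 23.0, 20.05 and 26.1 FPKM in LD DMSO brains (log2 difference -2.44 ± 0.23, SE; limma, adjusted p = 5.1e-10). CABZ01072523.1, a coding model without description (74131530 to 74135732), had 4.38, 3.91, 4.37 and 5.39 FPKM in those eyes, against 25.4, 16.6, 21.3 and 22.8 FPKM in those brains (-2.02 ± 0.21; limma, adjusted p = 3.9e-09). For tafa5a the values were 1.77, 2.02, 2.16 and 2.26 FPKM in eyes and 7.82, 14.1, 7.22 and 8.98 FPKM in brains (-1.75 ± 0.20; limma, adjusted p = 1.9e-08). These 3 genes did not overlap between the tissues in any of the 4 groups, with log2 differences of -2.44 to -1.79 for SLC2A13, -2.60 to -1.91 for CABZ01072523.1 and -1.75 to -1.60 for tafa5a. The left-out library, labelled brain, had 42.9 FPKM of gramd4a, 8.42 of SLC2A13, 3.28 of CABZ01072523.1 and 3.08 of tafa5a, each nearer to the eye libraries than to the brain libraries.

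Across the 8 comparisons of treatment or photoperiod within a tissue, 52 of the 212 members were called at least once (24.5%, against 42.9% of all genes tested) and 160 never. BX004873.1 was called for darkness in 4 of 4 comparisons, zgc:172139 for PFNA in 4 of 4, and si:ch73-289h5.4 for PFNA in 4 of 4 and for darkness in DMSO eyes. BX004873.1 passed the filter through DD libraries and si:ch73-289h5.4 mostly through DMSO libraries, so the repeats of these calls are no separate support. The PFNA comparison and the darkness comparison in a tissue share DMSO or PFNA libraries, so these counts are not independent.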

How the data were processed

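The deposited table holds FPKM per gene for 32 libraries, 16 per tissue. Per the submitters' processing notes, HISAT2 2.0.5 and featureCounts 1.5.0-p3 were among the tools used to make it; the genome build is not given in the sources used here, and coordinates are those of the deposited table. Total RNA was converted with random hexamers, per the labels' protocols, which name both a directional and a non-directional preparation. The 2 pooled columns were not used. FPKM times gene length gave whole fragments for all values (tolerance 0.05).

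Values were tested as log2(FPKM + 1) with limma 3.58.1 in R 4.3.3 (a mean for each group and tissue, eBayes with trend), in 16 eye libraries, 15 brain libraries, or 31 for eye against brain. Genes at 1 FPKM or more in at least 4 libraries of the tissue (of both tissues for eye against brain) were tested, 18204 in eyes, 17216 in brains and 16250 in both. Of the members 187, 172 and 147 were tested. P-values were adjusted by Benjamini-Hochberg over all genes tested, and called under 0.05. Scripts were checked on simulated data. Python 3.11.15, numpy 2.4.6, pandas 2.3.3 and matplotlib 3.10.9 made the summaries and figures.

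The members and lists were chosen with earlier results of these data known. Genes named are the 12 members with the highest mean, up to 4 rising and 4 falling called members of each comparison whose higher group mean is at least 1 FPKM, members called in at least 5 of the 8 within-tissue comparisons, and the 2 expressed genes nearest the boundary on each side; others are said to be named after their values were seen. Not every gene that meets this rule is reported here. Of the members 178 matched a table of gene symbols, and 14 share 6 display names, which are given with their identifiers. Alternatives were another pseudocount, no filter, other scalings, library weights, a replicate block, voom on fragments, another start of the arm, the left-out library kept, and each library left out in turn.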

Additional observations from a re-analysis of the deposited data

Results flagged for a closer look

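Within groups of 4 libraries, 22 values of named genes stood apart from the other 3 by Dixon's 95% criterion, of 259 groups tested, where chance flags about 1 in 20. In eye DD PFNA replicate 4 these were kcna1b at 23.01 FPKM, CABZ01117780.1 at 22.92 FPKM, CR376730.2 at 1.974 FPKM and alg10 at 26.05 FPKM. In eye LD PFNA replicate 3 they were AL935186.8 at 239.2 FPKM, AL935186.9 at 10.52 FPKM and gramd4a at 44.16 FPKM. The other eye LD PFNA values were BX950220.2 at 1.948 FPKM in replicate 1 and BX927253.2 at 2.19 FPKM in replicate 4.

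In eye DD DMSO the values were LO018124.1 at 1.671 FPKM and CR376730.2 at 1.604 FPKM in replicate 2, ENSDARG00000095200 at 2.811 FPKM and si:dkeyp-44b5.4 at 3.843 FPKM in replicate 3, and si:ch73-289h5.4 at 3.554 FPKM in replicate 4. In eye LD DMSO they were kcna1b at 27.01 FPKM in replicate 3 and alg10 at 15.44 FPKM in replicate 4. In brains they were BX927130.3 at 0.3877 FPKM in LD PFNA replicate 3 and cct2 (ENSDARG00000087206) at 16.62 FPKM in LD PFNA replicate 2. The LD DMSO brain values were AL935186.8 at 59.37 FPKM in replicate 2, si:dkey-27n6.4 at 1.11 FPKM in replicate 3 and CR749777.1 at 0.09439 FPKM in replicate 4, and the DD DMSO brain value was CABZ01043953.1 at 6.38 FPKM in replicate 2.

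The library left out, labelled brain DD PFNA replicate 3, was above every DMSO library of both tissues for 6 of the 37 genes checked. They were AL935186.8 at 498.8 FPKM, zgc:172139 at 32.55 FPKM, AL935186.9 at 19.8 FPKM, ckap4 at 8.023 FPKM, LO018124.1 at 4.658 FPKM and ms4a17a.7 at 2.119 FPKM.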

How the results depend on the processing

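Counts of called members stayed within 1.5 times of the reported count in 211 of 247 alternative settings. This total includes the interaction, where the count was 0 in every setting. Of the 36 settings outside that range, eye against brain had only that with the left-out library kept. All others fell in PFNA or darkness comparisons within a tissue. Without the filter on low values the counts were 4 for PFNA in LD eyes, 8 for DD in PFNA eyes, 4 for PFNA in LD brains and 11 for DD in DMSO brains. With array weights they were 14 for PFNA in LD eyes, 32 for DD in DMSO eyes and 19 for DD in PFNA brains. A pseudocount of 0.1 gave 3 for PFNA in DD eyes, and voom on fragments gave 11 for DD in PFNA brains. With the left-out brain library kept they were 1 for PFNA in LD brains, 1 for PFNA in DD brains, 6 for DD in DMSO brains and 29 for eye against brain in DD PFNA animals. Voom put the median of all genes at -0.12 for PFNA in DD eyes, against -0.02 as reported, and the median of members at -0.29, against -0.11. The library size implied by FPKM was 1.005, 0.970, 0.958 and 0.899 times the fragments assigned to genes in the 4 DD PFNA eye libraries. It was 1.039, 1.013, 1.008 and 1.032 times in the 4 DD DMSO eye libraries, while voom scales by summed fragments. The cause of these shifts was not tested.

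Leaving out 1 library at a time gave 3 to 10 called members for PFNA in LD eyes (10 without eye DD PFNA replicate 4, a choice made after seeing the data), 3 to 9 in DD eyes, 3 to 6 in LD brains and 4 to 10 in DD brains. For DD it gave 7 to 25 in DMSO eyes, 4 to 21 in PFNA eyes, 10 to 21 in DMSO brains and 4 to 5 in PFNA brains, and for the interaction 0 in both tissues. Eye against brain gave 30 to 34 in LD DMSO, 27 to 35 in DD DMSO, 31 to 36 in LD PFNA and 38 to 47 in DD PFNA animals. The libraries behind shifts over 1.5 times stand beside the counts in the report.

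Deviations of same-numbered libraries correlated at -0.034 to 0.215 over 24 pairs of eye groups, above 0.1 in 2. Over 21 pairs of brain groups they correlated at -0.296 to 0.271, above 0.1 in 7. Libraries with different numbers were not compared in this way, so these values cannot show whether replicate numbers pair the libraries. With a replicate block the counts were 6, 6, 7 and 7 for PFNA in LD eyes, DD eyes, LD brains and DD brains, and 11, 10, 13 and 4 for DD in DMSO eyes, PFNA eyes, DMSO brains and PFNA brains. For the interaction they were 0 in both tissues, and for eye against brain 36 in LD DMSO, 36 in DD DMSO, 38 in LD PFNA and 44 in DD PFNA.

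Of 117 results on single genes 70 kept their call under every alternative, and 198 of 1920 values no longer passed the threshold; 0 changed sign as a called value. With a median of 32.5 fragments per member and library, small changes of low members were not detectable.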

Other observations

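Some members were both on and off among libraries of 1 group. With on taken as 5 FPKM or more and off as under 1 FPKM, thresholds chosen after the values were seen, 18 of the 70 members that reached 5 FPKM in any library (25.7%) had on and off libraries within a group. The share was 20 of 377 genes (5.31%) on the rest of chromosome 4 and 1301 of 14769 (8.81%) over the table. Set over all expressed genes, these were 18 of 212 members, 20 of 488 genes on the rest and 1301 of 19170. Members lay lower in level, and the shares were not matched for level. AL935186.8 and RF00026 (ENSDARG00000112048), a small nuclear RNA family member, did so in 4 groups, and si:dkey-238k10.1 and AL935186.9 in 3. RF00026 had only 0 to 8 fragments per library. At 3 or more groups these 4 members were 5.71% of those reaching 5 FPKM, against 0.796% on the rest of chromosome 4 and 1.77% over the table. Except for the AL935186 models, these genes are named after their values were seen, and the difference in shares was not tested.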
